A study of Homo sapiens with 18 samples.

Results

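PARP9, PARP10, PARP12, PARP14, DTX3L, SP100, SP110, TRIM5, TRIM14 and TRIM22 are 10 genes chosen by name, from 55765 gene symbols counted by RNA-seq in OVCAR3 cells, and all 10 were measured well enough to be tested in both experiments. OVCAR3 is an established adherent line of high-grade serous ovarian cancer, grown here in RPMI medium with 2% FBS. In the first experiment the cells received natural human IgA of no chosen specificity, human IgG, or no antibody. In the second they received IgA against BDNF, IgA against TSPAN7, or no antibody; these antigen-specific IgA came from immortalized B cells of ovarian tumours. Each antibody was given at 0.5 µg/ml for 24 h according to the sample labels, whereas the description supplied with the study's supplement names a shorter time, and each of the 6 groups held 3 libraries. All groups are the same line, and no label says whether the 3 libraries of a group were separate cultures; p-values therefore measure the spread between these libraries. Groups were compared only within an experiment.

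These genes are known as interferon-stimulated genes. Interferons bind their receptors at the cell surface and activate JAK kinases, which phosphorylate STAT proteins. STAT proteins and IRF9 form a complex that binds interferon-stimulated response elements (ISREs) near its target genes, and STAT dimers bind gamma-activated sites (GAS). The members fall into 3 classes. PARP9, PARP10, PARP12 and PARP14 belong to the family of ADP-ribosyltransferases, and DTX3L is the E3 ubiquitin ligase that pairs with PARP9. SP100 and SP110 are nuclear body proteins that bind chromatin. TRIM5, TRIM14 and TRIM22 belong to the tripartite motif family, named for RING, B-box and coiled-coil domains. TRIM5 is a capsid-binding restriction factor, TRIM14 an adaptor of antiviral signalling at mitochondria, and TRIM22 an E3 ligase with antiviral activity.

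The start of each gene was examined for the letters these factors read. RefSeq promoter entries of 300 bases, 250 before and 50 after a transcription start, were present for 8 of the 10 members (all but PARP10 and TRIM22). The 9 entries that held a core named below each matched the gene's strand of its own chromosome in GRCh37 at 1 place. Other chromosomes were not searched. Motifs were chosen after earlier results on these genes were known and were searched on both strands. The ISRE core GAAANNGAAA was present for 6 of the 8 members, namely PARP9, PARP12, PARP14, DTX3L, TRIM5 and TRIM14, or in 6 of their 11 promoter entries, and in 3.57% of the 35116 promoters in the table. The shorter core AANNGAAA, which the ISRE core contains, was present for all 8, in 9 of the 11 entries, and in 22.8% of promoters. The GAS core TTCNNNGAA was present for PARP14 and SP110, in 2 of the 11 entries, and in 7.66% of promoters. The 30 bases around the matches are given below, 5′ to 3′ on the gene's own strand in GRCh37, because these letters are shared by genes whose counts moved differently; capitals mark the ISRE core, or the shorter core for SP100 and SP110.
PARP9 (chr3:122283169-122283198, minus strand): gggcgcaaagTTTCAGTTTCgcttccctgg
DTX3L (chr3:122283169-122283198, plus strand): ccagggaagcGAAACTGAAActttgcgccc
PARP14 (chr3:122399647-122399676, plus strand): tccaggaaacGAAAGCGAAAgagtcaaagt
PARP12 (chr7:139762742-139762771, minus strand): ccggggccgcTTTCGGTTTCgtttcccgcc
TRIM14 (chr9:100881511-100881540, minus strand): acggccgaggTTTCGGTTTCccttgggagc
TRIM5 (chr11:5706312-5706341, minus strand): atagtttatcTTTCACTTTCctgccctgag
SP100 (chr2:231280841-231280870, plus strand): aggttaaatacTTTCACTTctcttttcccc
SP110 (chr2:231090434-231090463, minus strand): caaagaggAAAAGAAAAGTGAAAttgccta
PARP9 and DTX3L lie head to head, and the same 30 bases lie in both entries, read on opposite strands. TRIM14 and PARP12 hold the same core letters. A match describes the letters and does not show that a factor bound there.

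By the GENCODE annotation lifted to GRCh37, PARP9 spans chr3:122246771-122283424 on the minus strand and DTX3L chr3:122283185-122294050 on the plus strand, and their exons overlap by 139 bases. PARP14 follows at chr3:122399686-122449687. PARP12 lies at chr7:139723549-139762751 and TRIM14 at chr9:100831557-100881504. SP110 (chr2:231029902-231090444) and SP100 (chr2:231280657-231410321) lie on the same chromosome, and TRIM22 (chr11:5710840-5758319, plus strand) lies within the annotated span of TRIM5 (chr11:5684425-5959849, minus strand). Whether the counting used strand is not given in the sources used here, so reads in exons shared with a gene on the other strand cannot be told apart: this touches 17.8% of SP110's exon bases, which overlap an antisense lncRNA, 7.70% of TRIM14's, which overlap NANS, 5.37% and 3.27% of PARP10's, which overlap GRINA and SPATC1, 2.41% of DTX3L's and 1.56% of PARP9's, which overlap each other, and smaller shares of SP110's (SP140, 1.59%) and SP100's (a lncRNA, 0.828%).

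The libraries held 27920733 to 42371474 counts in the first experiment and 39254350 to 47381836 in the second. IgA replicate 3 stood apart: 19.1% of its counts were mitochondrial against 5.75% to 8.32% in the other 8 libraries of that experiment, and the members' results on the non-specific IgA are therefore given with and without it. All 10 markers of serous ovarian epithelium, such as PAX8 and MUC16, had counts in every library; with IgA against IgG, PAX8 was higher and CLDN3, WT1, FOLR1 and KRT8 were lower, PAX8, MSLN and CDH1 were higher with BDNF IgA, and CLDN3, WT1 and MUC16 were lower with TSPAN7 IgA. With natural IgA, 2 of 4 fibroblast-listed genes tested (COL1A1 and COL1A2) and 1 of 2 plasma-cell-listed genes (SDC1) were higher than with IgG; the summed fibroblast list was at 68.2 to 138 CPM with IgA, 58.6 to 65.3 with IgG and 63.0 to 70.2 without antibody, and the summed B and plasma cell list, nearly all SDC1, at 129 to 202, 72.5 to 99.7 and 76.6 to 101 CPM. In edgeR, COL1A1 and COL1A2 were not called against untreated cells, with library totals alone, or without IgA replicate 3 (edgeR adjusted p = 0.0547 and 0.0865 against IgG). DESeq2 called both higher against IgG and against untreated cells. PAX8 was also not called by edgeR against IgG without IgA replicate 3. Of the listed markers of other cells, the myeloid ITGAM and FCGR3A and the B cell gene MS4A1 had 0 to 2 counts. The fibroblast gene COL3A1 had 0 to 7. Other genes of these lists had more: S100A8 had 91 to 319 counts in the first experiment and 1624 to 5055 in the second. S100A9 had 163 to 408 and 3057 to 7577, and COL1A2 1404 to 2237 and 2189 to 3160. CD14 had 9 to 37 and 14 to 45, and the leukocyte gene PTPRC 10 to 56 and 6 to 24. Their part in the results was not tested. In bulk RNA, a change in RNA per cell and a change in the share of cells that express a gene cannot be told apart.

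In untreated cells the members covered a wide range of levels. Per kb of exon, DTX3L was at 51.8 ± 0.749 CPM (counts scaled by the size of the library; SD, n = 3) in the first experiment and 47.9 ± 2.37 in the second, the highest of the 10. PARP14 (20.5 ± 1.72 and 21.8 ± 1.33 CPM per kb) and PARP9 (19.4 ± 1.05 and 16.5 ± 0.935 CPM per kb) came next. Their ranges overlapped in the first experiment and not in the second. TRIM14, TRIM5, SP100 and PARP12 followed, between 2.71 and 4.02 CPM per kb in the first experiment and between 3.87 and 5.12 in the second. PARP10 and SP110 could not be ordered, at 1.60 ± 0.154 and 1.56 ± 0.114 CPM per kb in the first experiment and at 2.49 ± 0.103 and 2.49 ± 0.101 in the second. TRIM22 was the lowest at 0.193 ± 0.00539 and 0.579 ± 0.0294 CPM per kb. The 2 experiments were counted in separate tables, so a level in one is not compared with a level in the other.

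**Figure D1:**
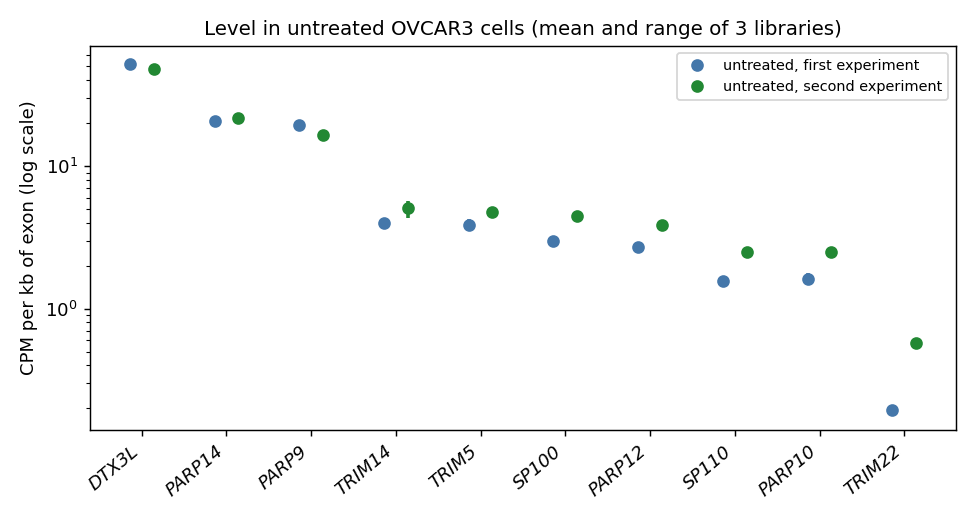
Level of each gene in untreated OVCAR3 cells, in CPM per kb of merged exon on a log axis; points are means of 3 libraries and lines span the lowest to the highest library, with the 2 experiments in separate colours. DTX3L is highest (51.8 and 47.9) and TRIM22 lowest (0.193 and 0.579).

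Natural IgA was compared with IgG to ask what the cells' response to this isotype is beyond that to antibody in general. PARP9, DTX3L and PARP12 were lower with IgA than with IgG, no member was higher, and the other 7 did not pass the test. Counts of 3 of 10 lower and 0 of 10 higher stand against 11.6% lower and 12.6% higher among the 18012 genes tested. The median log2 fold change was -0.25 over the members and -0.01 over all genes. Normalised counts, scaled to a common library size, are used below, and adjusted p-values are from edgeR's quasi-likelihood test with Benjamini-Hochberg adjustment over all genes.

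PARP9 fell the most in the PARP class. Its normalised counts were 3437, 3505 and 2824 with IgA, 5607, 5730 and 5579 with IgG, and 6237, 6360 and 5734 without antibody. Every IgA library was below every library of the other groups, with replicate 3 the lowest. The log2 fold change was -0.79 ± 0.10 (SE, n = 3) against IgG, edgeR adjusted p = 2.01e-04, and -0.91 ± 0.10 against untreated cells, edgeR adjusted p = 7.29e-05. Without IgA replicate 3, PARP9 was at -0.70 and -0.82.

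DTX3L, the partner of PARP9, moved the same way by less. Normalised counts were 7658, 8492 and 6985 with IgA, 9665, 10357 and 11351 with IgG, and 10652, 10358 and 10572 without antibody. The IgA libraries were again below all others. The log2 fold change was -0.44 ± 0.10 against IgG (edgeR adjusted p = 0.00737) and -0.45 ± 0.10 against untreated cells (edgeR adjusted p = 0.0063). Without IgA replicate 3, DTX3L was at -0.37 and -0.38.

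PARP12, a zinc finger PARP, had 409, 374 and 333 normalised counts with IgA, 517, 587 and 468 with IgG, and 518, 550 and 510 without antibody. The IgA libraries were below all others, and the log2 fold change was -0.49 ± 0.14 against IgG (edgeR adjusted p = 0.0238) and -0.50 ± 0.14 against untreated cells (edgeR adjusted p = 0.022). These calls were near the threshold: without IgG replicate 1 or 2 the adjusted p against IgG was 0.0577 or 0.119 in edgeR, and without untreated replicate 1, 2 or 3 that against untreated cells was 0.0613, 0.0765 or 0.0558. PARP12 without IgA replicate 3 was at -0.42 and -0.43 (edgeR adjusted p = 0.0381 and 0.0358).

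PARP14, which holds macrodomains that bind ADP-ribose, was at 6415 ± 310 normalised counts with IgA (SD, n = 3), 7499 ± 462 with IgG and 7426 ± 622 without antibody. Its libraries did not overlap between IgA and either other group, but its log2 fold changes of -0.23 and -0.21 missed the threshold (edgeR adjusted p = 0.107 and 0.128). PARP10, at 289 ± 10.9 with IgA and 330 ± 50.1 with IgG, overlapped between these groups (log2 fold change -0.19, 95% interval -0.54 to 0.16). When IgA replicate 3 was left out, PARP14 was at -0.25 and PARP10 at -0.22 against IgG, neither called. Non-overlapping libraries were not rare here: 6 of 10 members and 20.6% of all genes were lower in every IgA than in every IgG library, and 7 of 10 and 20.1% were lower in every IgA than in every untreated library.

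The SP class gave values on both sides of 0. SP100, a scaffold of PML nuclear bodies, had 1298, 1436 and 1668 normalised counts with IgA and 1394, 1373 and 1351 with IgG, so the IgA libraries spread around the IgG ones. Its log2 fold change was 0.10 (95% interval -0.14 to 0.33), and -0.01 without IgA replicate 3, the highest of the 3 IgA libraries. SP110 was at 628 ± 18.3 with IgA and 612 ± 31.9 with IgG, a log2 fold change of 0.04 (95% interval -0.22 to 0.29). SP110 was at 0.04 without IgA replicate 3. SP100 and SP110 were at -0.15 and -0.20 when only the library totals were used for scaling.

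In the TRIM class no member passed the test in either comparison with IgA. TRIM14 was at 690 ± 34.9 normalised counts with IgA and 835 ± 38.9 with IgG (log2 fold change -0.27, edgeR adjusted p = 0.0978), and TRIM5 at 644 ± 2.70 and 751 ± 68.7 (-0.22, edgeR adjusted p = 0.203). Leaving out IgA replicate 3, TRIM14 was at -0.28 and TRIM5 at -0.22, neither called. TRIM22 rests on few reads, with 37, 32 and 51 raw counts with IgA, 73, 117 and 35 with IgG, and 80, 102 and 109 without antibody. Its log2 fold change was -0.50 ± 0.41 against IgG and -0.76 ± 0.40 against untreated cells, with edgeR adjusted p = 0.398 and 0.188. IgA replicate 3, the library with the high mitochondrial share, had the highest TRIM22 value of its group, and without it the value against untreated cells was -1.22, edgeR adjusted p = 0.0319.

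Natural IgA against untreated cells shared the IgA libraries with the comparison above and gave the same 3 members lower and none higher, beside 12.1% lower and 12.9% higher among all genes. The median log2 fold change was -0.23 over the members and -0.01 over all genes. Without IgA replicate 3, 3 members were lower against IgG and 4 against untreated cells, beside 2397 and 2391 of the 18614 genes tested. Scaling by library totals alone moved the median of all genes by -0.23 and -0.21 in these comparisons and changed the split of all calls against IgG from 2265 higher and 2095 lower to 873 and 3631; 6 members were then lower against IgG.

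IgG was set against no antibody as the control for the presence of any antibody. No member passed the test, nor did any of the 18012 genes (0% higher and 0% lower by edgeR). In edgeR 89 genes and 0 members had an unadjusted p under 0.05, and DESeq2 also called 0. These 89 are far below a share of 0.05 of all genes, so the p-values of this comparison ran high. Each gene's spread was shared with the IgA libraries, which varied more, and the part of this was not tested. Fitted with only the 6 libraries compared, 0 genes were called higher and 0 lower. PARP9 was at 5639 ± 80.6 normalised counts with IgG and 6110 ± 332 without antibody (SD, n = 3), which is -0.12 on the log2 scale (95% interval -0.33 to 0.10). The members' log2 fold changes ran from -0.26 for TRIM22 to 0.11 for TRIM14.

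**Figure D2:**
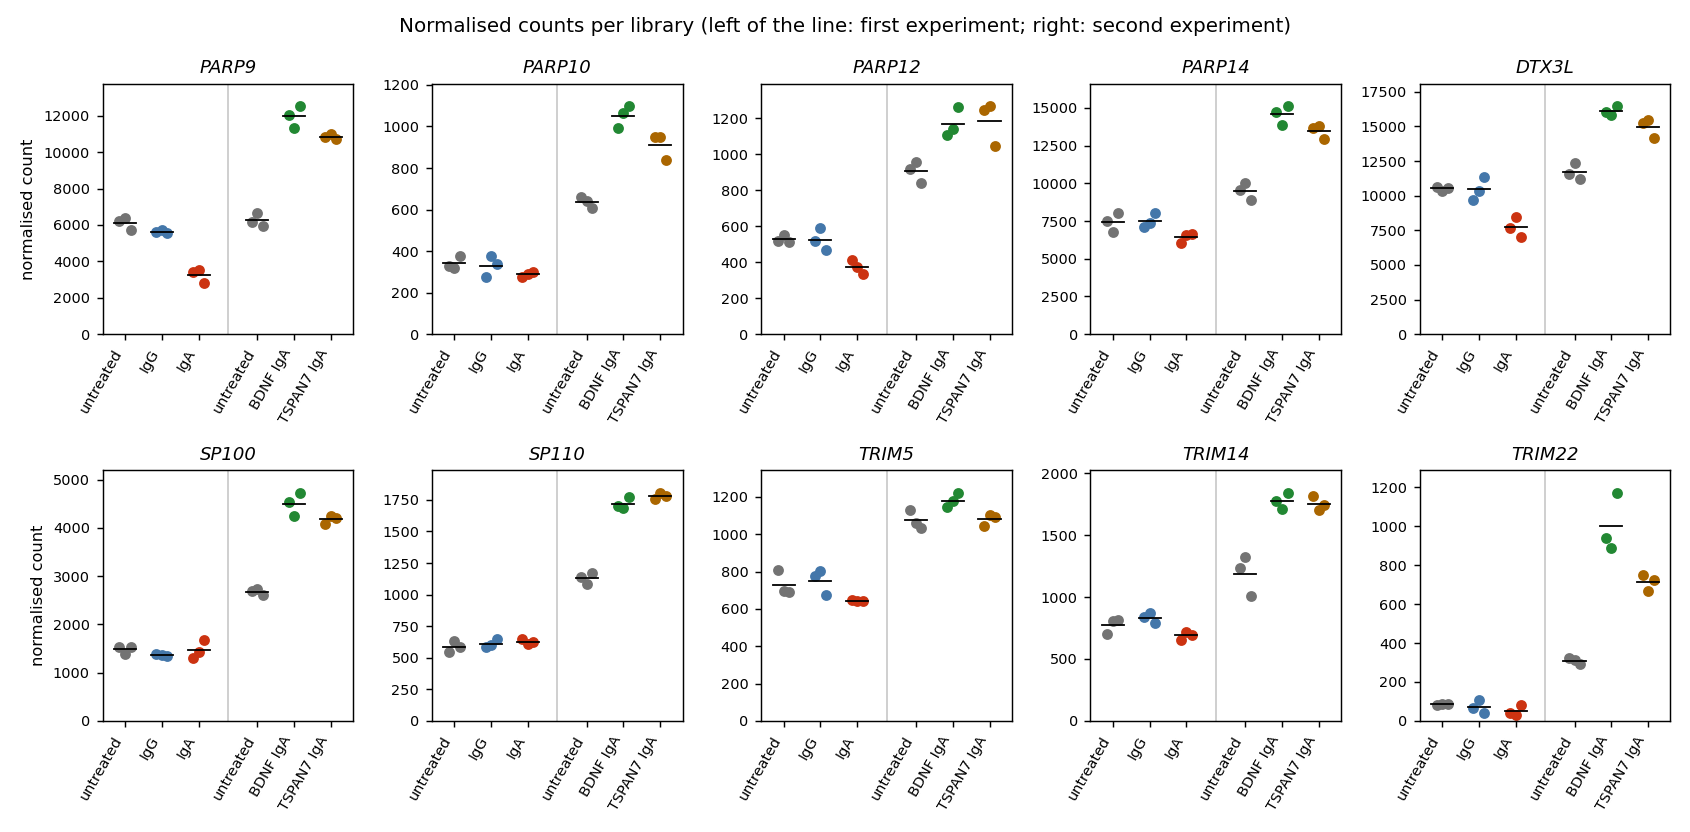
Normalised counts of the 10 genes in each library, on linear axes from 0 with a scale per gene; points are libraries, short lines are means of 3, and the vertical line separates the experiments, which are scaled separately. PARP9 is lower in the 3 IgA libraries (2824 to 3505) than in the IgG libraries (5579 to 5730), and 9 of the 10 genes are higher with both antigen-specific IgA than in the untreated libraries of the second experiment.

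The second experiment asked how the same cells respond to IgA that recognizes BDNF or TSPAN7. Both antibodies were compared with the same 3 untreated libraries. No control antibody was given in this experiment. Recognition of the antigen, IgA as such and the B cell preparation therefore cannot be told apart in these comparisons. With each, 9 members rose and none fell, TRIM5 being the exception. Among the 18732 genes tested, BDNF IgA was higher for 4.49% and lower for 3.18%, and TSPAN7 IgA was higher for 4.46% and lower for 4.08%. The median log2 fold change of the members was 0.61 with BDNF IgA and 0.54 with TSPAN7 IgA, beside 0.00 over all genes in both. All 10 members were higher in every BDNF IgA library than in every untreated one, beside 12.8% of all genes, and 9 were so with TSPAN7 IgA, beside 14.4%.

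TRIM22 rose the most. Its normalised counts were 321, 313 and 291 in untreated cells, 943, 891 and 1171 with BDNF IgA, and 751, 666 and 724 with TSPAN7 IgA. The 3 groups did not overlap. The rise was 3.25-fold with BDNF IgA (log2 fold change 1.70 ± 0.10, SE, n = 3; edgeR adjusted p = 4.94e-11) and 2.32-fold with TSPAN7 IgA (1.21 ± 0.10, edgeR adjusted p = 2.21e-08). TRIM22 ranked 22nd from the top of all genes by log2 fold change with BDNF IgA and 85th with TSPAN7 IgA.

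Among the PARP class, PARP9 rose from 6184, 6655 and 5961 normalised counts to 12052, 11352 and 12512 with BDNF IgA and to 10810, 10998 and 10716 with TSPAN7 IgA. Each treated library held more PARP9 than any untreated one. The log2 fold changes were 0.93 ± 0.05 (edgeR adjusted p = 1.26e-11) and 0.79 ± 0.05 (edgeR adjusted p = 2e-10). DTX3L rose by less, from 11570, 12349 and 11218 to 16040, 15859 and 16445 with BDNF IgA and to 15262, 15442 and 14150 with TSPAN7 IgA. These were log2 fold changes of 0.46 ± 0.05 and 0.35 ± 0.05.

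PARP14 went from 9494 ± 580 normalised counts to 14584 ± 626 with BDNF IgA and 13500.0 ± 460.3 with TSPAN7 IgA (SD, n = 3), log2 fold changes of 0.62 and 0.51. PARP10 (chr8:145051321-145086940, minus strand), a mono-ADP-ribosyltransferase, went from 637 ± 26.3 to 1052 ± 52.6 and 912 ± 65.1, log2 fold changes of 0.72 and 0.52. PARP12 had the smallest rise of the PARPs, from 904 ± 58.9 to 1168 ± 81.9 and 1186 ± 121, log2 fold changes of 0.37 (edgeR adjusted p = 0.0038) and 0.39 (edgeR adjusted p = 0.00214).

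Both SP genes rose, unlike the first experiment, where neither passed the test; the difference between the experiments was not tested. SP100 was at 2686, 2733 and 2603 normalised counts in untreated cells, 4542, 4239 and 4723 with BDNF IgA, and 4073, 4255 and 4202 with TSPAN7 IgA. The treated groups overlapped each other and lay above the untreated libraries. Its log2 fold changes were 0.75 ± 0.05 (edgeR adjusted p = 4.94e-10) and 0.64 ± 0.05 (edgeR adjusted p = 6.93e-09). SP110, known as a nuclear body protein of leukocytes, went from 1136, 1081 and 1172 to 1699, 1689 and 1774 and to 1756, 1803 and 1779, log2 fold changes of 0.61 and 0.65.

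TRIM14 went from 1231, 1326 and 1010 normalised counts to 1778, 1707 and 1839 with BDNF IgA and 1814, 1704 and 1742 with TSPAN7 IgA, log2 fold changes of 0.58 and 0.56. TRIM5 was at 1133, 1058 and 1032 in untreated cells, 1144, 1178 and 1220 with BDNF IgA, and 1047, 1104 and 1091 with TSPAN7 IgA. Its BDNF IgA libraries were just above the untreated ones and its TSPAN7 IgA libraries lay among them. The log2 fold change of TRIM5 was 0.14 (95% interval 0.01 to 0.26, edgeR adjusted p = 0.177) and 0.01 (95% interval -0.12 to 0.13, edgeR adjusted p = 0.956), although its promoter entry holds the ISRE core printed above.

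**Figure D3:**
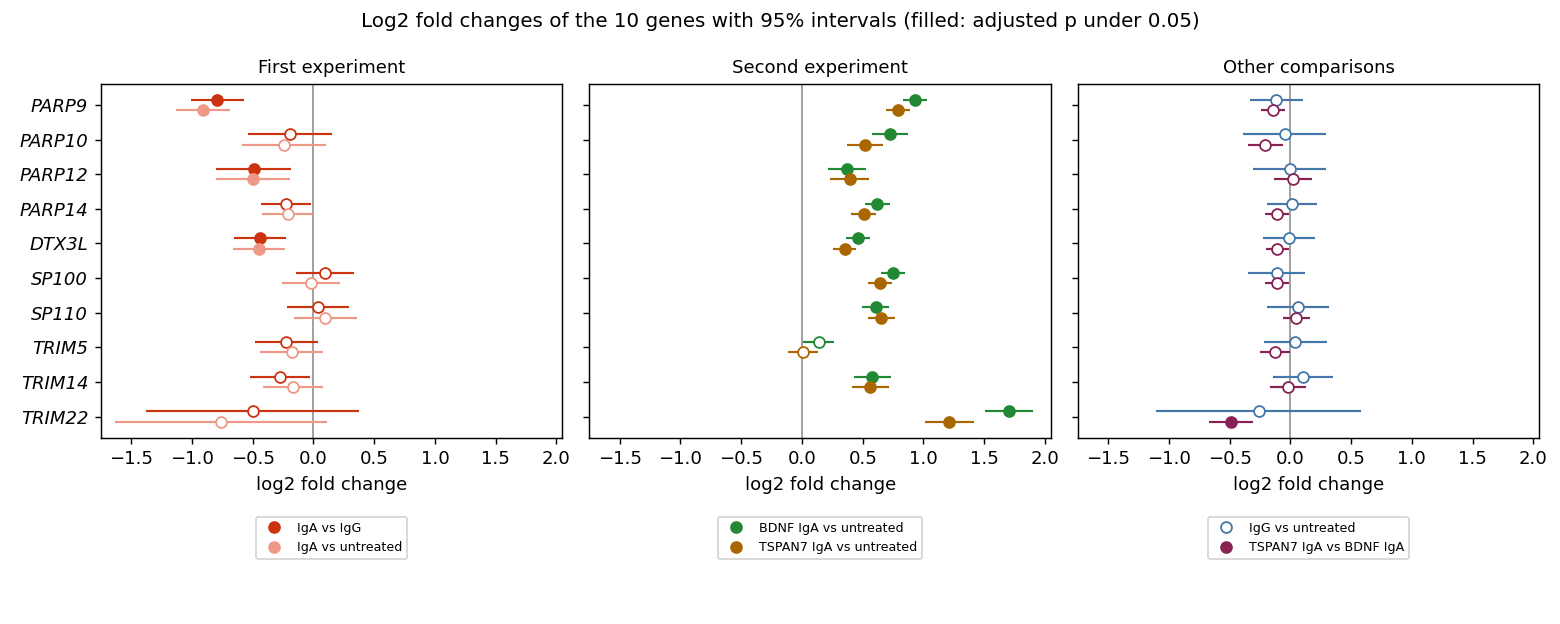
Log2 fold changes of the 10 genes from the edgeR fits, with 95% intervals over 3 libraries a group; filled points passed an adjusted p under 0.05 and open points did not, and colours mark the comparison named under each panel. IgA against IgG lies left of 0 for 8 genes, and for all 10 when only library totals are used for scaling; filled points of both antigen-specific IgA lie right of 0 for 9 genes, TRIM22 farthest at 1.70 and 1.21.

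TSPAN7 IgA was compared with BDNF IgA directly, at the same dose and time. The 2 antibodies differ in antigen and also in the B cells and preparation they came from. These cannot be told apart here. TRIM22 was lower with TSPAN7 IgA, at 714 ± 43.4 normalised counts against 1002 ± 149 (SD, n = 3). Its log2 fold change was -0.49, with an SE of 0.09 and an edgeR adjusted p of 0.00146. No member was higher. In the same comparison 6 of 10 epithelial markers (CLDN3, WT1, FOLR1, MSLN, CDH1 and MUC16) and the myeloid-listed S100A8 and S100A9 were lower, with median log2 fold changes of -0.33 and -0.67 over their lists, and the part of these genes was not tested. TRIM22's 1 of 10 stands beside 4.5% of genes lower and 3.42% higher. The other 9 members missed the threshold, with PARP9 at -0.14 (95% interval -0.24 to -0.05, edgeR adjusted p = 0.0669) and PARP10 at -0.21 (95% interval -0.35 to -0.06, edgeR adjusted p = 0.0704) closest to it. The interval for PARP12 was -0.13 to 0.18, for SP110 -0.06 to 0.16 and for TRIM14 -0.17 to 0.13. The libraries of 6 members did not overlap, all lower with TSPAN7 IgA, beside 12.1% of all genes. PARP9 is called with library totals alone, with no filter on low counts and in DESeq2. Without BDNF IgA replicate 2 the count of lower members rises to 4, PARP9, PARP14, SP100 and TRIM22. Lower calls over all genes rise there too, to 1722 of 19179 tested, from 843 of 18732 with all libraries.

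PARP9 and DTX3L share the printed bases and are partners as proteins, so their counts were divided within each library, which removes the scaling between libraries; this ratio was chosen after the values were seen. In the first experiment it was 0.585, 0.614 and 0.542 in untreated cells, 0.580, 0.553 and 0.491 with IgG, and 0.449, 0.413 and 0.404 with IgA. Every IgA library was below all others. In the second it was 0.535, 0.539 and 0.531 in untreated cells, 0.751, 0.716 and 0.761 with BDNF IgA, and 0.708, 0.712 and 0.757 with TSPAN7 IgA. Both treated groups were above the untreated one and overlapped each other. The ratio with IgA was 0.779 times that with IgG and 0.727 times that in untreated cells, and with BDNF IgA and TSPAN7 IgA it was 1.39 and 1.36 times that in untreated cells. In exact two-sided permutation tests these 4 differences each gave p = 0.1, the smallest that 3 against 3 libraries allow. Each was 0.15 after Benjamini-Hochberg adjustment over the 6 comparisons. IgG against untreated cells and TSPAN7 IgA against BDNF IgA each gave p = 0.4 in the same exact test. PARP9 divided by PARP14 moved the same way, so the shift was not limited to division by DTX3L. In the first experiment it was 0.427 to 0.567 with IgA, 0.697 to 0.789 with IgG and 0.716 to 0.939 in untreated cells. In the second experiment it was 0.817 to 0.828 with BDNF IgA, 0.789 to 0.826 with TSPAN7 IgA and 0.648 to 0.670 in untreated cells. Whether the shared bases have a part in either ratio was not tested.

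**Figure D4:**
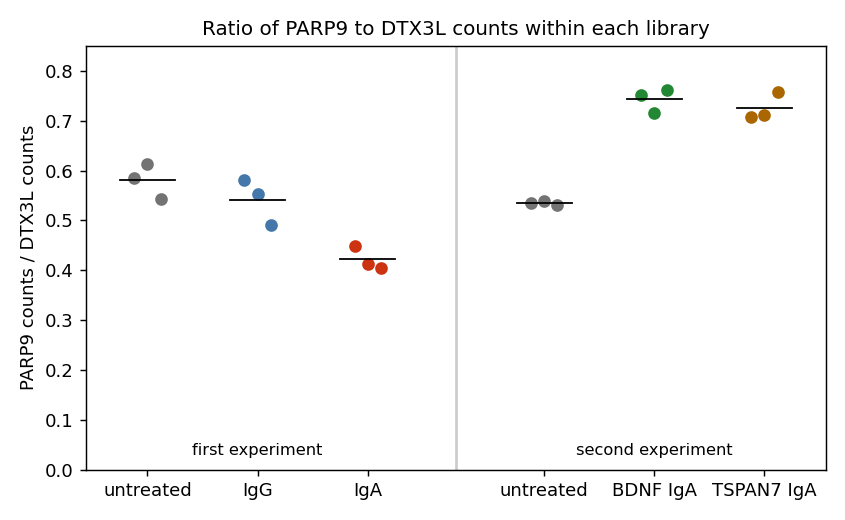
PARP9 counts divided by DTX3L counts within each library, on a linear axis from 0; points are libraries and short lines are means of 3, with the experiments on either side of the vertical line. The IgA libraries lie between 0.404 and 0.449, below the IgG and untreated libraries, and the antigen-specific IgA libraries lie between 0.708 and 0.761, above the untreated libraries at 0.531 to 0.539.

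PARP9, PARP12 and DTX3L are the 3 members that passed the test in both experiments, lower with natural IgA and higher with both antigen-specific IgA. The share of all genes with this combination was not computed. Taken singly, lower calls with natural IgA held for 11.6% of all genes against IgG and 12.1% against untreated cells. Higher calls held for 4.49% with BDNF IgA and 4.46% with TSPAN7 IgA. PARP12 was called in 13 of 17 alternatives in each comparison with natural IgA. For PARP9 the log2 fold changes were -0.79 against IgG, and 0.93 and 0.79 against untreated cells for BDNF and TSPAN7 IgA. For DTX3L they were -0.44, 0.46 and 0.35, and for PARP12 -0.49, 0.37 and 0.39. The experiments differ in antibody source, in controls and in count table, and the difference between them was not tested.

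The members varied together in the second experiment and less so in the first. Over the 9 libraries of the second, the Pearson r of each member's log2 CPM with the mean of the other members ran from 0.90 to 0.99 for 9 members and was 0.57 for TRIM5. Over the 9 libraries of the first it ran from 0.58 to 0.83 for 8 members and was -0.14 for SP100 and -0.56 for SP110. The points share group and scaling, and no p is given. The genes whose pattern was most like the members' mean in the second experiment were OAS2, C19orf66, IFITM1, SAMHD1 and IFI44 (r from 0.992 to 0.988, of 14073 genes ranked). OAS2 had means of 931 normalised counts in untreated cells, 4115 with BDNF IgA and 3485 with TSPAN7 IgA. In the first experiment the most alike included KCNH3, FAM160B2, KIAA1217 and ZNF226 (r from 0.981 to 0.972, of 13505 genes ranked).

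The interferon pathway around the members was measured through 12 genes of receptors, kinases and transcription factors. With BDNF IgA none was lower, and IRF9 (log2 fold change 1.12), STAT2 (0.53) and the interferon-γ receptor chain IFNGR1 (0.36) were higher. With TSPAN7 IgA, IRF9 (0.95), IFNGR1 (0.40), STAT2 (0.27) and IRF1 (0.17) were higher, and the type I receptor chain IFNAR1 was lower (-0.26). STAT2 was also lower with TSPAN7 than with BDNF IgA (-0.26, edgeR adjusted p = 0.0249), as was IFNAR1 (-0.16, edgeR adjusted p = 0.0417).

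With natural IgA against IgG, 4 of the 12 were higher and 1 lower. IRF1 was at 1.19, IFNGR1 at 0.95, IFNGR2 at 0.82 and JAK1 at 0.35 on the log2 scale, and IFNAR1 at -0.36. STAT2 at -0.33 and IRF9 at -0.56 missed the threshold (edgeR adjusted p = 0.123 and 0.395). With library totals alone 3 were higher and 4 lower, so the balance of this list turned with the scaling. With IgA replicate 3 left out, IRF1 was at 0.85, IFNGR1 at 0.99, IFNGR2 at 0.74 and JAK1 at 0.27, IFNAR1 was no longer called (edgeR adjusted p = 0.081), and STAT2 was lower (-0.55, edgeR adjusted p = 0.00168). Of 10 interferon genes in the tables, only IFNE, an epithelial type I interferon, passed the filter on low counts. In the first experiment IFNE had a mean of 10.6 ± 12.9 normalised counts with IgA, 37.2 ± 19.4 with IgG and 39.6 ± 23.0 without antibody (SD, n = 3). In the second it had 76 to 134 raw counts a library. It was called in no comparison. IFNL1 had at most 7 raw counts in the first experiment and 6 in the second. IFNA1, IFNA2, IFNW1 and IFNG had no counts in any of the 18 libraries, which allows up to 3 counts a library, and IFNB1 had at most 2 counts in the first experiment and 4 in the second.

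Of 12 other PARPs tested, PARP6 (log2 fold change 0.41) and PARP8 (0.27) were higher with BDNF IgA, PARP6 (0.24) was higher with TSPAN7 IgA, and none was lower with either. With natural IgA against IgG, TIPARP was higher (0.57) and ZC3HAV1, the antiviral protein ZAP, lower (-0.87). Among the 8 genes that remove ADP-ribose or related bonds, OARD1 and TDP1 were lower with natural IgA (-0.65 and -0.53) and OARD1 was lower with TSPAN7 IgA (-0.26). Among the 4 other Deltex ligases, DTX4 was lower with natural IgA against IgG (-1.82) and with TSPAN7 IgA (-0.44). The values against IgG without IgA replicate 3 were 0.62 for TIPARP, -0.71 for ZC3HAV1, -0.46 for OARD1 and -1.53 for DTX4, all called, and -0.37 for TDP1, which was not.

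PML, which organizes the nuclear bodies that hold SP100, was higher with natural IgA against IgG (0.87, and 0.60 without IgA replicate 3), with BDNF IgA (0.22) and with TSPAN7 IgA (0.23). Of the 10 genes of its list, 2 were higher with BDNF IgA, the other being the exonuclease ISG20 (0.57), and 1 with TSPAN7 IgA, and none was lower in these 3 comparisons. Of 10 other interferon-linked TRIM genes tested, TRIM69 (0.37), TRIM8 (0.30), TRIM25 (0.22) and TRIM38 (0.20) were higher with BDNF IgA, and TRIM25 (0.25) with TSPAN7 IgA. TRIM25 and TRIM26 were lower with natural IgA against IgG (-0.41 and -0.36, edgeR adjusted p = 0.0478 and 0.0228). TRIM25 was not called with the size factors of DESeq2 (RLE) in edgeR, while DESeq2 itself called it lower. Without IgA replicate 3, 4 of these TRIM genes were lower, TRIM25 (-0.60) and TRIM26 (-0.31) among them. With library totals alone, natural IgA against IgG gave 0 higher and 3 lower of the other PARPs, 1 higher and 2 lower of the PML list, and 0 higher and 5 lower of these TRIM genes. Medians of this list were 0.21 with BDNF IgA, 0.16 with TSPAN7 IgA and -0.29 with natural IgA against IgG, against 0.00, -0.00 and -0.01 over all genes. S100A8 and S100A9, listed as myeloid genes, were also higher with BDNF IgA (0.76 and 0.53), and the summed myeloid list was at 206 to 285 CPM there, 138 to 150 CPM with TSPAN7 IgA and 122 to 176 CPM in untreated cells. With TSPAN7 IgA, 0 of 5 myeloid genes tested were higher, and the leukocyte gene PTPRC, 1 of 2 tested in the B and plasma cell list, was higher at 19.7 against 7.40 normalised counts (log2 fold change 1.39, edgeR adjusted p = 0.0487). The part of these genes in the members' rise was not tested.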

How the data were processed

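The authors sequenced 18 libraries in paired 75-base reads and deposited raw read counts per gene in 2 tables, 1 per experiment. Per the methods of the study, reads were aligned to GRCh37 and counted by featureCounts, whereas the submitters' processing notes name bcl2fastq 2.20.0.422, cutadapt 1.8.1 and HTSeq 0.6.1 on hg19. The deposited counts carry no normalization. Exact duplicate rows (2055) of the second table were dropped. The 10 genes and the lists of related genes were chosen with earlier results of these data known; the 10 are named whatever their values, and list genes by their call and size. Each table was fitted once in edgeR 4.0.16 (R 4.3.3; quasi-likelihood F test, TMM scaling, filterByExpr, 9 libraries in 3 groups), two-sided, with Benjamini-Hochberg adjustment over all genes tested and a threshold of 0.05. To give normalised counts, each library was brought to the average TMM-adjusted size within its table. Alternatives used limma 3.58.1 and DESeq2 1.42.0. The steps were run on simulated data with planted changes larger than nearly all of the members'. That run does not show how well smaller changes are found. Replicates of a group differed beyond sampling noise (chi-square per degree of freedom at least 3.91), so none was merged. This value was 67.0 to 232 for natural IgA, 6.60 to 25.0 for IgG and untreated cells beside it, and 3.91 to 12.2 in the second experiment. The common dispersion of edgeR, its measure of spread between replicates, was 0.0307 in the first experiment and 0.00303 in the second. Calls in the 2 experiments therefore do not rest on the same precision. Exon lengths and positions are from GENCODE lifted to GRCh37, which is not the annotation used for counting, and promoters are from RefSeq (GRCh38.p14), placed on GRCh37 by exact match. Results of some related genes are not reported here.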

Additional observations from a re-analysis of the deposited data

How the results depend on the processing

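The precision of these values rests on 3 libraries a group, and depth limits only TRIM22 in the first experiment, at 32 to 117 raw counts. The 60 log2 fold changes of the members were recomputed under each alternative, giving 1050 values, of which 1004 kept their direction and their side of the threshold, 8 lost the call, 11 gained it and 27 changed sign, all of the latter in results that were not called. The 9 rises with BDNF IgA and the 9 with TSPAN7 IgA were called under every alternative tried. PARP9 with natural IgA stayed between -1.02 and -0.70 against IgG and was called in 17 of 17 alternatives. Why the values below moved was not tested.

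With library totals alone, 6 members were lower with IgA than with IgG, gaining PARP14, TRIM5 and TRIM14 (edgeR adjusted p = 0.0143, 0.0378 and 0.0184), SP100 and SP110 against IgG were at -0.15 and -0.20, SP110 against untreated cells was at -0.11, and PARP12 and DTX3L with IgG against untreated cells were at 0.0222 and 0.0152. Lower members with TSPAN7 against BDNF IgA were 2 with library totals alone, 2 with no filter on low counts and 2 in DESeq2, by the gain of PARP9 (adjusted p = 0.0455, 0.035 and 0.0378), and 1 to 4 when 1 library was left out. PARP12 lost its call against IgG with voom quality weights per group (limma adjusted p = 0.0735) and with only the 6 libraries compared (edgeR adjusted p = 0.0656), and against untreated cells with voom (limma adjusted p = 0.0681).

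Leaving out 1 library at a time, SP100 ranged from -0.00754 to 0.173 against IgG and from -0.120 to 0.0602 against untreated cells. For IgG against untreated cells, PARP10 ranged from -0.155 to 0.0640, PARP12 from -0.0941 to 0.0707, PARP14 from -0.0481 to 0.0684, DTX3L from -0.0720 to 0.0447, TRIM5 from -0.00733 to 0.120 and TRIM22 from -0.676 to 0.0304. TRIM5 with TSPAN7 IgA against untreated cells ranged from -0.0192 to 0.0495, and for TSPAN7 against BDNF IgA PARP12 ranged from -0.0254 to 0.104 and TRIM14 from -0.0434 to 0.00934. Deviations of samples sharing a replicate number had r from -0.07 to 0.25, highest for IgG and untreated replicate 3. Samples with different numbers had r from -0.21 to 0.14. These ranges overlap and the labels name no pairs, so whether the numbers pair samples is not decided. A fit with the replicate block gave 3 members lower against IgG, 3 against untreated cells, 9 higher with each antigen-specific IgA and 1 lower with TSPAN7 than with BDNF IgA. Over the alternatives, the calls among all genes, higher and lower, ran from 873 to 2520 and 1227 to 3631 for IgA against IgG (2265 and 2095 as reported), 1001 to 2512 and 1236 to 3296 for IgA against untreated cells (2316 and 2187), 0 and 0 to 2 for IgG against untreated cells (0 and 0), 429 to 1505 and 293 to 1293 for BDNF IgA (841 and 596), 429 to 1177 and 328 to 1168 for TSPAN7 IgA (836 and 764), and 196 to 1554 and 286 to 1722 for TSPAN7 against BDNF IgA (641 and 843). The list genes without IgA replicate 3 were recomputed as an alternative chosen after seeing the data.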
